A study of Homo sapiens with 17 samples.

Results

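The kallikrein-related peptidases KLK5 to KLK14 were followed across 10 RNA-seq libraries of head and neck cancer cell lines. All 10 genes, chosen by their symbols, were found among the 34496 gene rows of the count table. They were made from Cal27 cells, which derive from a squamous carcinoma of the tongue, from a Cal27 derivative labelled as an NSD1 knockout, and from SKN3 and BICR78, both head and neck cancer lines. NSD1 methylates lysine 36 of histone H3, and EPZ-6438 (tazemetostat) inhibits EZH2, which places methyl groups on lysine 27 of that histone. The treated set held 2 libraries of the labelled knockout with EPZ-6438, 2 of the labelled knockout with DMSO, the solvent control, and 2 of unmodified Cal27 with DMSO. A separate set of untreated cells held 1 library each of the labelled knockout, SKN3, BICR78 and Cal27. The labels give no dose or time of treatment, name a single knockout derivative, and list no parental Cal27 with EPZ-6438, so an effect of NSD1 and an effect of that derivative cannot be told apart.

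Kallikrein-related peptidases are secreted serine proteases encoded by neighbouring genes on chromosome 19. They leave the cell as inactive proenzymes and activate each other by removal of a short propeptide. In stratified squamous epithelium KLK5, KLK7 and KLK14 cut the junction proteins that hold the outermost cells together, the inhibitor LEKTI (encoded by SPINK5) restrains them, and KLK5 and KLK14 can also activate the receptor PAR2 (encoded by F2RL1).

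In the RefSeq annotation of GRCh38.p14 the genes lie side by side on the minus strand, beginning with KLK5 (chr19:50943303-50953038) and ending with KLK14 (chr19:51077494-51084210). A RefSeq table of promoters held windows of 300 bases, 250 before and 50 after a transcript start, for 9 of the 10 genes, and KLK8 was not matched. Where it lists several starts of a gene (KLK7, KLK10, KLK11, KLK13 and KLK14) the first listed was taken, so a window can lie inside the gene. Those of KLK11, KLK13 and KLK14 do. Because most of these genes changed together below, the windows of KLK5, KLK7 and KLK10 are shown as members that fell, KLK11 as the one whose RNA differed most between the untreated libraries, and KLK14 as one that was not called. Each is written 5′ to 3′ on the minus strand, with the dinucleotide CG, the target of DNA methylation, in capitals.
KLK5: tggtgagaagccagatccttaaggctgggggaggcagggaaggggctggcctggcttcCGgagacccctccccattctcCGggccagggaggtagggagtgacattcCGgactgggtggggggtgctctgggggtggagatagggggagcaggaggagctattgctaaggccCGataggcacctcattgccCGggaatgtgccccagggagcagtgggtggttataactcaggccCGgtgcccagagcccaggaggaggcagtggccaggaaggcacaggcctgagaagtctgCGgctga
KLK7: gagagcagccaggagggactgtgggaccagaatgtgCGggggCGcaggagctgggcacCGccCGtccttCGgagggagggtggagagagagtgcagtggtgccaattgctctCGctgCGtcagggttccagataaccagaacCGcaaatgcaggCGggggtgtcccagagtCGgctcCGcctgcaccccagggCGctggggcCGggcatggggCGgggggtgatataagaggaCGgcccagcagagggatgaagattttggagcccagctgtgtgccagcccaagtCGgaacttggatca
KLK10: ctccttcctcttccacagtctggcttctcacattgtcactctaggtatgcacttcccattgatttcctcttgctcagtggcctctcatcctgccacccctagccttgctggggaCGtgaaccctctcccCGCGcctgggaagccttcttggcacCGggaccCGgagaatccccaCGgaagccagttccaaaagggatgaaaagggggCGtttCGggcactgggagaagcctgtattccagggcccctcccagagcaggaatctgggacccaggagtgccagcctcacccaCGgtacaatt
KLK11: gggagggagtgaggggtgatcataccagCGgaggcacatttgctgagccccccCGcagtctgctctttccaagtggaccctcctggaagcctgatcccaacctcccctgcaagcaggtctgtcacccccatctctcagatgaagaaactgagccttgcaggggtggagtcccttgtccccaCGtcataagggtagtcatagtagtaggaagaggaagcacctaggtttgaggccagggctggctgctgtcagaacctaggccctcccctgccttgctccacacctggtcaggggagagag
KLK14: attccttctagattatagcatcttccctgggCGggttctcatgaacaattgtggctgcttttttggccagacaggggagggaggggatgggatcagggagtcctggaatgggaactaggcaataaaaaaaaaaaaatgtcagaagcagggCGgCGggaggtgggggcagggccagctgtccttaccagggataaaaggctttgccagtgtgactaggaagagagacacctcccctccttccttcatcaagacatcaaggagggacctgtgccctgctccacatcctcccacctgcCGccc
These windows span chr19:50952989-50953288 for KLK5, chr19:50983868-50984167 for KLK7, chr19:51019812-51020111 for KLK10, chr19:51027597-51027896 for KLK11 and chr19:51082807-51083106 for KLK14. The KLK7 window held 16 CG dinucleotides and that of KLK10 held 9, against 7 in KLK5, 4 in KLK14 and 3 in KLK11. The median over the 9 matched members was 7 against 14 over 27305 RefSeq promoters, while the GC content had a median of 61.7% against 58.3%. The TEAD motif GGAATG was found at -148 to -143 and at -57 to -52 from the start of KLK5 and at -146 to -141 of KLK14, and 14.0% of all promoters held it on either strand. The RUNX motif TGTGGT was found at 2 to 7 of KLK6, counting the first transcribed base as 0, against 13.1% of all promoters. No member's window held the AP-1 motif TGANTCA, the STAT motif TTCNNNGAA, the GRHL motif AACNNGTT or the TATA box TATAAA, which 7.76%, 7.88%, 3.5% and 12% of all promoters held. A match is a run of letters and not a measured site, and the RefSeq start need not be the start used in these cells.

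Depth was 11745655 to 15509079 counts in the EPZ-6438 and DMSO libraries, and 17587063 to 21738951 counts in untreated cells. NSD1 itself had 165 and 163 CPM (counts scaled to a common library size) in the labelled knockout with DMSO, against 113 and 114 CPM in Cal27 with DMSO, so its RNA was higher and the counts do not check the label. All 7 squamous epithelial markers (EPCAM, CDH1, TP63, KRT5, KRT14, KRT17 and KRT6A) were detected in every group, and the T cell marker CD3E was at 0 in both Cal27 libraries with DMSO. The summed squamous markers, mostly keratins, stood at 2290 to 2310 CPM with EPZ-6438, 3530 to 3650 CPM in the labelled knockout with DMSO and 8140 to 8220 CPM in Cal27 with DMSO. With the knockout label 5 of these 7 genes fell, EPCAM rose by 0.11 (log2) and CDH1 was not called. Over all tested genes 19.5% fell and 16.4% rose with the label, which are also the shares for the other markers below. Immune markers summed to 197 to 203, 168 to 171 and 74.3 to 74.5 CPM in these 3 groups, fibroblast markers to 21.2 to 25, 7.46 to 9.94 and 18.8 to 20.5 CPM, and endothelial markers to 26.2 to 28.7, 20.6 to 23 and 17.1 to 17.4 CPM. With the label, both tested immune markers rose, 3 of 5 tested fibroblast markers fell, and of the endothelial markers CDH5, which makes up most of that sum, rose while PECAM1 and VWF fell. PECAM1 and VWF averaged 0.223 and 0.23 CPM in the labelled knockout with DMSO and were tested only through other groups, so their falls are not evidence in themselves. The part of these marker shifts in the results was not tested, and in bulk RNA fewer cells of a type and less RNA per cell cannot be told apart. No label says that replicates were separate cultures, so p-values measure the spread between these libraries, which may be technical.

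**Figure D1:**
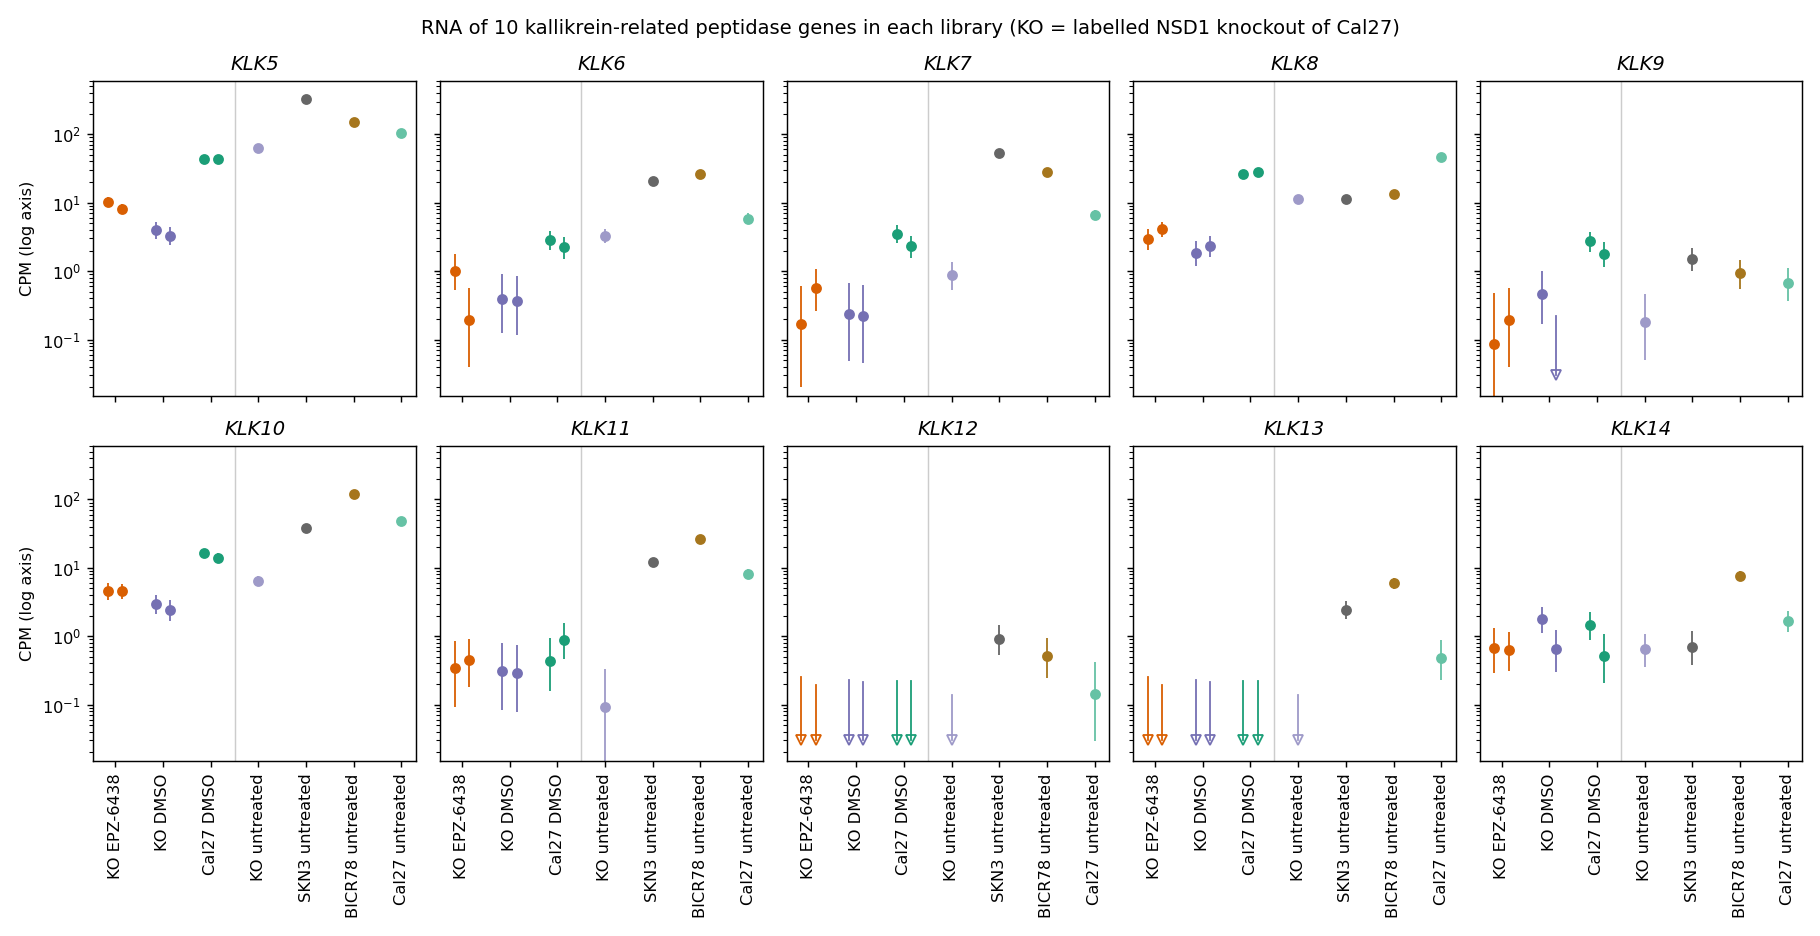
RNA level in CPM (log axis) of each of the 10 genes in every library, with exact 95% Poisson intervals as vertical lines that cover counting error only and are cut at the lower edge; open triangles mark libraries with a count of 0, drawn at an arbitrary low position with a line up to the level of 3 counts. The labelled knockout with DMSO lies below Cal27 with DMSO for KLK5 to KLK10, and KLK12 and KLK13 are at 0 in all libraries of the labelled knockout and in Cal27 with DMSO.

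The first comparison asked how the labelled NSD1 knockout differs from Cal27 when both were kept in DMSO. Among the proteases of skin shedding, KLK5, a trypsin-like enzyme that activates other kallikreins, and KLK7, a chymotrypsin-like enzyme that degrades corneodesmosin, both fell, whereas KLK14 did not pass the test. KLK8, KLK10, KLK6 and KLK9 fell as well. Each change below is a log2 ratio followed by its fitted standard error (SE), and calls rest on edgeR's quasi-likelihood test with p-values adjusted by Benjamini-Hochberg over 13241 genes, at a threshold of 0.05.

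KLK5 stood at 3.96 and 3.26 CPM in the labelled knockout with DMSO, against 43.9 and 43.4 CPM in Cal27 with DMSO. The groups did not overlap, and KLK5 fell by 3.60 ± 0.13 (log2, SE; edgeR, adjusted p = 1.3e-12). KLK7 had 0.233 and 0.217 CPM, which are 3 counts in each library, in the labelled knockout with DMSO, against 3.51 and 2.31 CPM in Cal27 with DMSO. It fell by 3.65 ± 0.53 (log2, SE; edgeR, adjusted p = 4.4e-05). KLK14 had 23 and 9 counts in the labelled knockout with DMSO, against 20 and 7 counts in Cal27 with DMSO. Those ranges overlapped, and its change of 0.27 ± 0.53 (log2, SE) had an adjusted p of 0.74 in edgeR, with a 95% counting interval of -0.52 to 1.06 on the summed counts.

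KLK8, also called neuropsin, is a trypsin-like protease of skin and brain. It had 1.86 and 2.32 CPM in the labelled knockout with DMSO, against 26.6 and 27.7 CPM in Cal27 with DMSO, and fell by 3.69 ± 0.17 (log2, SE; edgeR, adjusted p = 1.9e-11). KLK10, first described as a gene of normal epithelial cells that is lost in breast cancer, had 2.95 and 2.39 CPM, against 16.2 and 14.1 CPM in Cal27 with DMSO. It fell by 2.51 ± 0.18 (log2, SE; edgeR, adjusted p = 6.9e-09), which is the smallest of the 6 called changes. KLK6, also called neurosin, had 5 counts in each library of the labelled knockout with DMSO, against 39 and 30 counts in Cal27 with DMSO, and fell by 2.74 ± 0.54 (log2, SE; edgeR, adjusted p = 0.00074). KLK9 had 6 and 0 counts in the labelled knockout with DMSO, against 37 and 24 counts in Cal27 with DMSO. It fell by 3.27 ± 0.65 (log2, SE; edgeR, adjusted p = 0.00084), and its fitted change was -2.25 without the second library of the labelled knockout with DMSO. Without the first it was -7.95, where the remaining library is at 0 and the fit sets the value.

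Across the family 6 of the 7 tested genes fell and none rose in edgeR or in DESeq2, nor at an unadjusted p below 0.05, where 19.5% of all tested genes were called lower and 16.4% higher. The median change of the 7 was -3.27 against -0.01 over all tested genes (log2). That count is not evidence in itself for KLK6, KLK7 and KLK9, which passed the low-count filter of 0.725 CPM in 2 libraries only through Cal27 with DMSO, while KLK5, KLK8 and KLK10 passed it in every group. By size of change, KLK8 and KLK5 lay among the lowest 0.75% of tested genes, and KLK10 within the lowest 1.7%. KLK7, KLK9 and KLK6 lay within the lowest 1.4%. Passing the filter only through Cal27 with DMSO favours a low rank, so their ranks are not evidence in themselves either. The median of -3.27 includes these genes and shares that limit.

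KLK11, KLK12 and KLK13, all trypsin-like, were not tested. KLK11 had 4 counts in each library of the labelled knockout with DMSO, against 6 and 12 counts in Cal27 with DMSO, a change of -1.12 (log2) with an adjusted p of 0.34 in edgeR without the low-count filter. KLK12 and KLK13 were at 0 in all libraries with DMSO or EPZ-6438, where a count of 0 allows a level of up to 0.192 to 0.254 CPM (3 counts), so no difference was detectable at this depth.

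The second comparison asked what EPZ-6438 did in the labelled knockout. KLK5, KLK8 and KLK10 rose, and none of the 7 tested genes fell in edgeR or in DESeq2, nor at an unadjusted p below 0.05. KLK5 had 10.3 and 8.11 CPM with EPZ-6438, against 3.96 and 3.26 CPM in the labelled knockout with DMSO, and rose by 1.34 ± 0.17 (log2, SE; edgeR, adjusted p = 4.3e-06). KLK10 had 4.57 and 4.54 CPM with EPZ-6438, against 2.95 and 2.39 CPM with DMSO, and rose by 0.78 ± 0.21 (log2, SE; edgeR, adjusted p = 0.0051). KLK8 had 2.96 and 4.09 CPM with EPZ-6438, against 1.86 and 2.32 CPM with DMSO, and rose by 0.78 ± 0.23 (log2, SE; edgeR, adjusted p = 0.0092).

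The KLK5 call held without any of the 6 libraries, with an adjusted p of at most 0.00034 over its alternatives. The KLK8 call was lost without the first library of the labelled knockout with DMSO (0.63, adjusted p = 0.076 in edgeR) and without the second EPZ-6438 library (0.50, adjusted p = 0.20). The KLK10 call was lost without the second library of the labelled knockout with DMSO (0.63, adjusted p = 0.056 in edgeR). Against a minimum change of 0.5 (log2), KLK5 alone was called. The family's 3 of 7 compares with 25.6% of all tested genes called higher and 23.9% called lower in this comparison, and its median change was 0.78 against 0 (log2).

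The other genes were too sparsely counted for a direction. KLK6 had 12 and 3 counts with EPZ-6438, against 5 counts in each library with DMSO, and KLK7 had 2 and 9 counts against 3 in each. KLK9 had 1 and 3 counts with EPZ-6438, against 6 and 0 with DMSO. Their changes of 0.56 ± 0.70, 0.80 ± 0.76 and -0.60 ± 1.10 (log2, SE) had adjusted p-values of 0.54, 0.41 and 0.68 in edgeR, and each changed sign without 1 library. KLK14 had 8 and 10 counts with EPZ-6438, against 23 and 9 with DMSO, a change of -0.86 ± 0.58 (log2, SE; edgeR, adjusted p = 0.23). KLK11 had 4 and 7 counts with EPZ-6438, against 4 in each library with DMSO.

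Libraries of the labelled knockout with EPZ-6438 were also set against Cal27 with DMSO, a comparison that shares its libraries with both comparisons above. All 6 genes that had fallen with the knockout label were still called lower, beside 25.9% of all tested genes called lower and 26.1% called higher, though KLK6, KLK7 and KLK9 had passed the filter only through Cal27 with DMSO. KLK8 had 2.96 and 4.09 CPM with EPZ-6438, against 26.6 and 27.7 CPM in Cal27 with DMSO, a change of -2.92 ± 0.15 (log2, SE; edgeR, adjusted p = 5e-11). KLK5 differed by -2.26 ± 0.11 (adjusted p = 2.8e-11 in edgeR), KLK10 by -1.73 ± 0.16 (adjusted p = 9.7e-08), KLK7 by -2.85 ± 0.48, KLK6 by -2.18 ± 0.50 and KLK9 by -3.87 ± 0.71 (log2, SE). These 3 depended on the EPZ-6438 library: KLK6 came to -3.67 without the first and -1.32 without the second, KLK7 to -2.32 and -4.03, and KLK9 to -3.49 and -4.59, all still called. KLK14 differed by -0.60 ± 0.59 and was not called (adjusted p = 0.43 in edgeR).

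As a share of the Cal27 level with DMSO, KLK10 stood at 30.1% with EPZ-6438 and at 17.7% in the labelled knockout with DMSO. KLK5 stood at 21.1% with EPZ-6438 and 8.27% with DMSO, and KLK8 at 13% and 7.71%. Summed over the 10 genes, the level was 20.1 and 18.8 CPM with EPZ-6438, 12 and 9.49 CPM in the labelled knockout with DMSO, and 97.6 and 92.9 CPM in Cal27 with DMSO. The sum was therefore higher with EPZ-6438 than without it in every library and lower than in either Cal27 library. KLK5 alone supplied 33.1% to 51.3% of the counts in that sum.

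**Figure D2:**
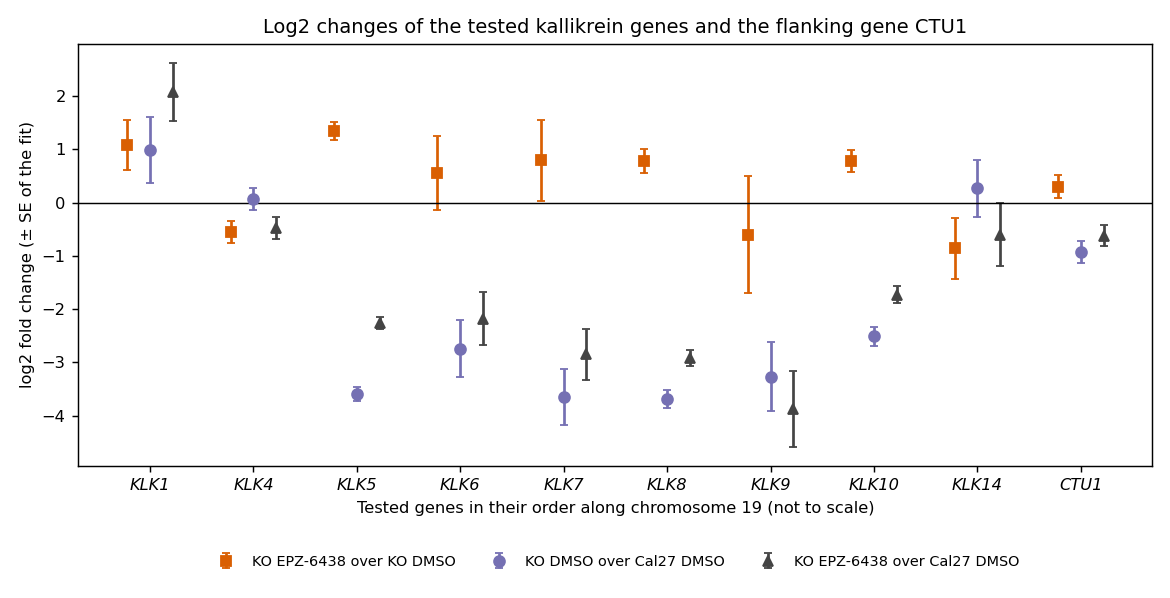
Log2 fold changes with the SE of the fit for the tested kallikrein genes and the flanking gene CTU1, in chromosomal order but not to scale; squares show EPZ-6438 over DMSO in the labelled knockout, circles the labelled knockout over Cal27 with DMSO, and triangles the labelled knockout with EPZ-6438 over Cal27 with DMSO. KLK5 to KLK10 lie between -2.51 and -3.69 as circles, while KLK4, next to KLK5, lies at 0.07 and KLK14 at 0.27. KLK11, KLK12 and KLK13, which lie between KLK10 and KLK14, were not tested and are not drawn.

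The called genes were neighbours. KLK4 (chr19:50906351-50911395), whose product matures tooth enamel, lies next to KLK5 and had 6.22 and 5.07 CPM in the labelled knockout with DMSO, against 4.98 and 5.73 CPM in Cal27 with DMSO. These overlap, and its change was 0.07 ± 0.20 (log2, SE; edgeR, adjusted p = 0.83). With EPZ-6438 it had 4.23 and 3.51 CPM, and it fell by 0.55 ± 0.21 on the log2 scale against the labelled knockout with DMSO (edgeR, adjusted p = 0.042), a call that DESeq2 did not make (adjusted p = 0.18). In the untreated pair KLK4 was lower in the labelled knockout, with 54 counts against 152 in Cal27. KLK1, tissue kallikrein, was not called in either comparison with the labelled knockout in DMSO (adjusted p = 0.23 and 0.065 in edgeR). With EPZ-6438 it was higher than in Cal27 with DMSO, by 2.08 ± 0.54 (log2, SE; edgeR, adjusted p = 0.0037), opposite to the called members. KLK2, KLK3, KLK15 and KLKP1 had too few counts to be tested.

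Of the 5 protein-coding genes nearest to the kallikrein cluster on each side, CTU1 alone was tested. CTU1 (chr19:51097606-51108409), a tRNA-modifying enzyme gene next to KLK14, fell by 0.92 ± 0.21 (log2, SE; edgeR, adjusted p = 0.0023). In the RefSeq annotation KLK5 and KLK6 overlap the non-member LOC105372442, and the strand setting of the counting is not given in the sources used here, so reads of overlapping genes on either strand cannot be told apart.

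The untreated libraries gave a separate pair of the labelled knockout and Cal27, with 1 library each and hence no test within the pair. No family member was higher in the labelled knockout, and 7 of the 9 genes with at least 10 counts in either library were lower by 2-fold or more, where 10.4% of all such genes were 2-fold lower and 6.76% 2-fold higher. The median difference of the 9 was -2 against -0.01 over all such genes (log2 CPM with a prior count of 2). KLK9, KLK11 and KLK13 reached 10 counts only in Cal27, which favours a lower value in the labelled knockout. For them the count of 7 and the median are not evidence in themselves. KLK11 had 2 counts in the untreated labelled knockout, against 172 counts in untreated Cal27, a difference of -5.28 (log2) with a 95% counting interval of -9.55 to -4.62 on the ratio itself. KLK10 had 141 counts against 999, KLK7 had 19 against 137 and KLK8 had 250 against 963, differences of -2.87, -2.75 and -2 (log2). KLK13 had 0 counts in the untreated labelled knockout, against 10 in untreated Cal27. With a floor of 3 counts for the labelled knockout it was 3.49-fold lower, which takes the 10 counts as exact. The 95% counting interval of the log2 ratio reached up to -1.23, so a smaller difference was not excluded. KLK12 had 0 counts against 3.

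KLK5 and KLK6 differed least in the untreated pair. KLK5 had 63.4 CPM (95% Poisson interval 60.1 to 66.8) in the untreated labelled knockout, against 103 CPM (98.7 to 107) in untreated Cal27, a difference of -0.70 (log2). KLK6 had 3.25 CPM (2.54 to 4.1), against 5.84 CPM (4.85 to 6.97), a difference of -0.82 (log2). KLK9 had 4 counts against 14, a difference of -1.37, and KLK14 had 14 counts against 35, a difference of -1.23 (log2). For these 4 genes the counting interval of the log2 ratio lay below 0.

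Whether the difference between labelled knockout and Cal27 itself differed between the untreated and the DMSO libraries was tested with edgeR after these values had been seen, using the spread pooled over groups and assuming that the lone untreated libraries vary like the others. Replicate spread in untreated cells was not measured, so these p-values rest on that assumption. KLK5 changed by -0.70 in the untreated pair and -3.60 with DMSO, a difference of 2.90 ± 0.16 (log2, SE; adjusted p = 2.3e-09). KLK8 changed by -2.01 and -3.69, a difference of 1.68 ± 0.23 (adjusted p = 4.5e-05), and KLK6 by -0.84 and -2.74, a difference of 1.89 ± 0.67 (adjusted p = 0.045). KLK11 went the other way, with -6.37 untreated and -1.12 with DMSO, a difference of -5.24 ± 1.03 (adjusted p = 0.0012). KLK7, KLK9, KLK10 and KLK14 were not called, with adjusted p-values of 0.5, 0.5, 0.25 and 0.19. Among all 13999 genes in that fit 14.6% had a positive and 15.3% a negative called difference, so 3 and 1 of 8 tested members are counts to be read against those shares. Treatment and set cannot be told apart here.

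**Figure D3:**
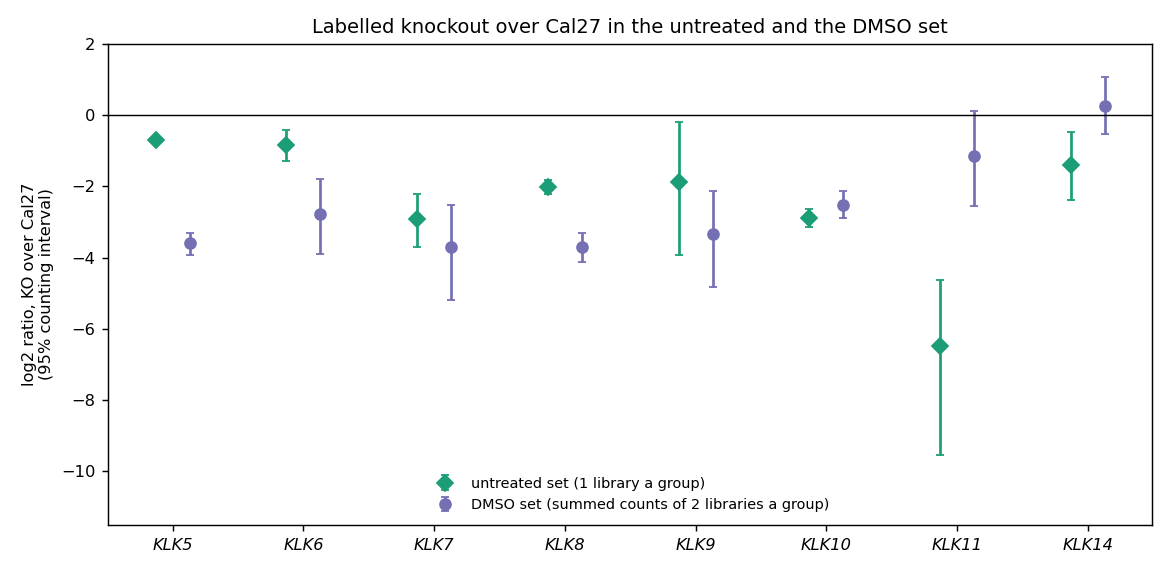
Log2 ratio of the labelled knockout over Cal27 for 8 of the 10 genes, with 95% counting intervals from the counts of 1 library a group in the untreated set (diamonds) and from the summed counts of 2 libraries a group in the DMSO set (circles). KLK5 lies at -0.70 in the untreated set and -3.60 in the DMSO set, KLK10 has overlapping intervals, and KLK11 is far lower in the untreated set.

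Unmodified Cal27 differed between the sets as well. KLK11 averaged 0.666 ± 0.32 CPM with DMSO (SD, n = 2) and had 8.24 CPM untreated, so it was 12.4-fold higher in the untreated library, where 2.5% of 13826 genes were more than 4-fold higher. KLK10 was 3.16-fold, KLK5 2.36-fold, KLK6 2.3-fold and KLK7 2.25-fold higher in untreated Cal27, while KLK9 ran against them with 2.25 CPM with DMSO and 0.67 CPM untreated. The summed squamous markers were also higher in untreated Cal27, at 24200 CPM.

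When the untreated pair was added to the DMSO comparison with set as a covariate, KLK5, KLK7, KLK8, KLK9 and KLK10 stayed lower and KLK11 was called lower, with a change of -3.48 ± 1 (log2, SE; edgeR, adjusted p = 0.048). KLK6 was no longer called (-1.77, adjusted p = 0.059), and the KLK5 change came to -2.27 (adjusted p = 0.027). That fit takes the change with the label as the same in both sets. The test above called it different for KLK5, KLK6, KLK8 and KLK11, so their values here are averages over unlike sets. KLK11 had not passed the low-count filter in the DMSO and EPZ-6438 libraries, and changed by -1.12 (log2) with DMSO without that filter. Its call rests largely on the untreated pair and is not separate support.

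SKN3 and BICR78 were compared with untreated Cal27, again with 1 library each and no test. Most members were higher in both lines, and KLK8 was lower in both. SKN3 had 6 of 10 genes higher and 2 lower by 2-fold or more, where 23.3% of genes were higher and 19.3% lower by that size. BICR78 had 7 higher and 1 lower, where 19.2% were higher and 10.9% lower. One of those 7, KLK12, had 10 counts against 3, with a 95% counting interval of the log2 ratio from -0.11 to 4.34. KLK12 reached 10 counts only in SKN3 and BICR78, so its place among the higher genes of either line is not evidence in itself. The median differences of the family were 1.35 in SKN3 and 1.49 in BICR78 against 0.01 over all genes in each (log2).

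KLK7 had 53.5 CPM in SKN3 and 28.1 CPM in BICR78, against 6.56 CPM in Cal27, differences of 3 and 2.08 (log2). KLK5 had 326 CPM in SKN3 and 153 CPM in BICR78, against 103 CPM in Cal27. KLK6 had 20.9 and 26.6 CPM in SKN3 and BICR78, against 5.84 CPM in Cal27. In these proteases both lines lay above Cal27, with counting intervals that do not overlap it.

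KLK10 had 37.6 CPM in SKN3 and 120 CPM in BICR78, against 47.8 CPM in Cal27, and KLK14 had 0.703 and 7.53 CPM against 1.68 CPM. The lines thus lay on opposite sides of Cal27 for both genes. KLK13, a protease of oral and oesophageal epithelium, had 2.43 CPM in SKN3 and 5.93 CPM in BICR78, against 0.479 CPM in Cal27. KLK11 had 12.1 and 26.1 CPM against 8.24 CPM. KLK8 had 11.3 CPM (9.83 to 13) in SKN3 and 13.2 CPM (11.6 to 14.9) in BICR78, against 46.1 CPM (43.2 to 49.1) in Cal27, and the 11.4 CPM of the untreated labelled knockout lay in the same range as these lines. KLK9 had 28 and 18 counts against 14, and KLK12 had 17 and 10 counts against 3.

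**Figure D4:**
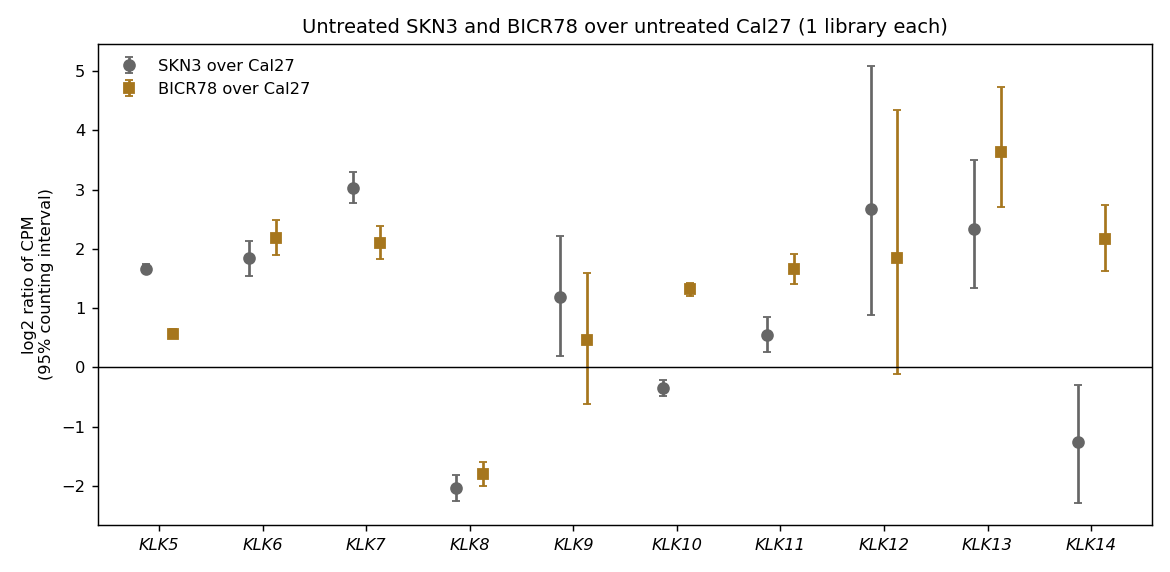
Log2 ratio of CPM for untreated SKN3 (circles) and untreated BICR78 (squares) over untreated Cal27, with 95% counting intervals and 1 library each. KLK8 lies near -2 in both lines, KLK10 and KLK14 lie on opposite sides of 0, and KLK5, KLK6, KLK7, KLK11 and KLK13 lie above 0 in both.

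BICR78 itself had almost no NSD1 RNA, with 9 counts (0.464 CPM) against 150 CPM in untreated Cal27, while SKN3 had 80.2 CPM. The family summed to 381 CPM in BICR78 and 468 CPM in SKN3, against 86.3 CPM in the untreated labelled knockout and 221 CPM in untreated Cal27. KLK5 supplied 40%, 69.8%, 73.4% and 46.7% of the counts in these sums, in that order. The order of KLK5 levels over all groups was SKN3, BICR78, untreated Cal27, untreated labelled knockout, DMSO-treated Cal27, and then the labelled knockout, first with EPZ-6438 and last with DMSO, and no neighbours in that order had overlapping counting intervals or replicate values. In the order of KLK8 levels, untreated Cal27 was highest, followed by Cal27 with DMSO, while BICR78, the untreated labelled knockout and SKN3 could not be told apart by their counting intervals.

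The genes did not all vary alike over the 10 libraries. The Pearson correlation of log2 CPM was 0.95 between KLK5 and KLK6, 0.92 between KLK5 and KLK7, and 0.96 between KLK12 and KLK13. It was 0.30 between KLK5 and KLK14 and 0.32 between KLK8 and KLK13. The libraries share cell line, replicate group and set, and KLK12 and KLK13 share the libraries in which both are at 0, so these values are descriptions. The genes outside the family most like its summed level over the 10 libraries, among 15450 compared, were ATMIN (r = 0.9727), PRODH (0.9658), ZNRF2P1 (0.9627), RABAC1 (0.9618) and CLEC11A (0.9589). PRODH, the mitochondrial proline dehydrogenase, averaged 0.212 ± 0.061 CPM with EPZ-6438, 0.0777 ± 0.11 CPM in the labelled knockout with DMSO and 1.07 ± 0.14 CPM in Cal27 with DMSO (SD, n = 2 each), and had 21.5 CPM in SKN3 and 20.4 CPM in BICR78, against 8.48 CPM in untreated Cal27. ATMIN, a zinc finger gene, varied over a narrower range, with group levels of 51.9 to 78.5 CPM. CLEC11A is one of the genes flanking the kallikrein cluster. Its group levels of 0.0362 to 2.22 CPM, and those of ZNRF2P1 of 0.342 to 2.06 CPM, were low.

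Inhibitors of these proteases did not follow a single direction in the labelled knockout. Of 12 listed inhibitors 9 were tested, and 3 rose and 4 fell in the knockout comparison, with a median of -0.18 (log2), where 16.4% of all tested genes rose and 19.5% fell. SPINK5, which encodes LEKTI, had 2.18 and 2.46 CPM in the labelled knockout with DMSO, against 4.54 and 4.46 CPM in Cal27 with DMSO, and fell by 0.96 ± 0.24 (log2, SE; edgeR, adjusted p = 0.0047). DESeq2 did not call it (adjusted p = 0.053), nor did edgeR with the untreated pair added (-2.01, adjusted p = 0.052). In the untreated pair SPINK5 had 18 counts against 303, in the same direction as the kallikreins. SLPI, an inhibitor of leukocyte elastase and of KLK7, fell by 0.82 ± 0.05, and SERPINA3, an inhibitor of chymotrypsin-like proteases, fell by 0.69 ± 0.08 (log2, SE). SERPINA3 ran the other way in the untreated pair, with 484 counts against 153. A2M, named after its values were seen, had 0 counts in both libraries of the labelled knockout with DMSO, against 18 and 17 counts in Cal27 with DMSO. It passed the low-count filter only through Cal27 with DMSO, so its place among the 4 is not evidence in itself. SERPINA5, which encodes the protein C inhibitor, rose by 1.84 ± 0.42, and SPINT1, the inhibitor of matriptase, by 0.25 ± 0.04 (log2, SE). SERPINA5 averaged 0.443 CPM in Cal27 with DMSO, below the filter cutoff of 0.725 CPM. It was tested only through the labelled knockout, so its place among the 3 shares that limit.

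With EPZ-6438, 6 inhibitors rose and 3 were not called, with a median of 0.87 (log2), where 25.6% of all tested genes rose. One of the 6, A2M, had 0 and 8 counts with EPZ-6438 against 0 in both libraries with DMSO, so its call rests on a single library. SLPI had 266 and 278 CPM with EPZ-6438, against 54.9 and 54.5 CPM in the labelled knockout with DMSO, and rose by 2.32 ± 0.04 (log2, SE; edgeR, adjusted p = 3e-17). SERPINA3 rose by 2.70 ± 0.07, SERPINA5 by 1.72 ± 0.28 and SPINT1 by 0.87 ± 0.04 (log2, SE). SLPI and SERPINA3 thereby stood above Cal27 with DMSO, by 1.5 ± 0.04 and 2.02 ± 0.06 (log2, SE), whereas KLK5 to KLK10 stood below it. SPINK5 changed by 0.59 ± 0.25 (log2, SE) and was not called (edgeR, adjusted p = 0.058).

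**Figure D5:**
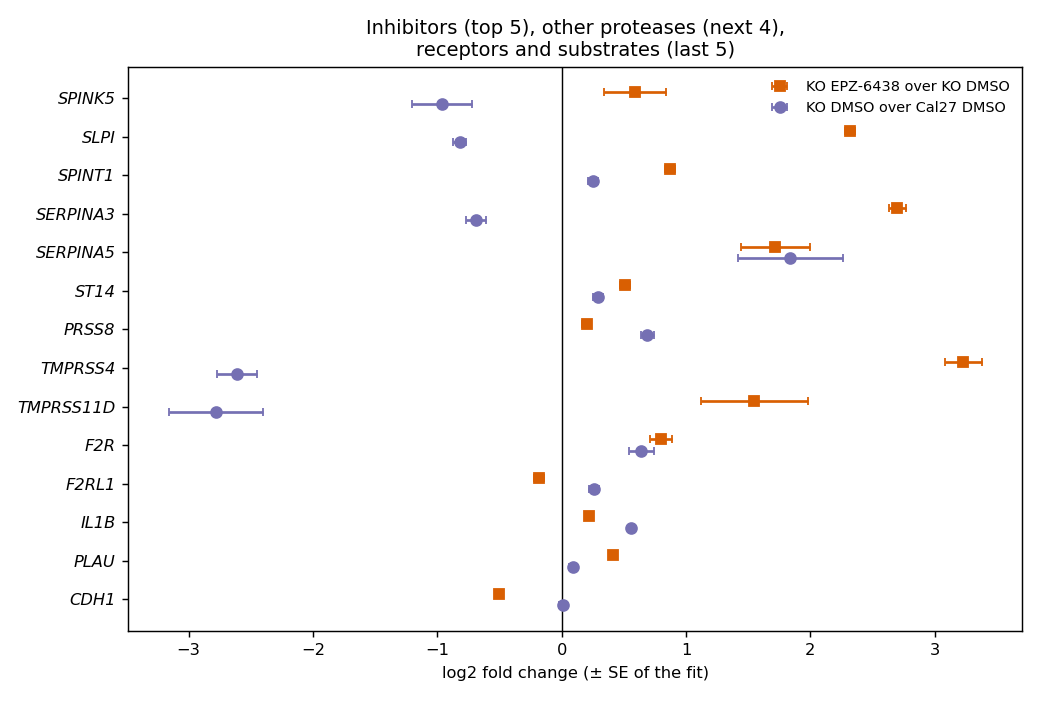
Log2 fold changes with the SE of the fit for inhibitors of the kallikreins (first 5 genes), other epithelial proteases (next 4) and receptors and substrates (last 5); squares show EPZ-6438 over DMSO in the labelled knockout and circles the labelled knockout over Cal27 with DMSO. TMPRSS4 and TMPRSS11D lie at -2.61 and -2.78 as circles and at 3.23 and 1.55 as squares.

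Other listed proteases of epithelia included genes with the same direction as the kallikreins. Of 9 listed 6 were tested, and 2 rose and 3 fell in the knockout comparison, with a median of -1.16 (log2), while 5 rose and 1 was not called with EPZ-6438, with a median of 1.03. The shares over all tested genes were 16.4% higher and 19.5% lower with the label, and 25.6% higher with EPZ-6438. TMPRSS11D and TMPRSS13 averaged 0.523 and 0.225 CPM in the labelled knockout with DMSO, below the filter cutoff of 0.725 CPM. They were tested only through Cal27 with DMSO and the EPZ-6438 libraries, so for them these counts and medians are not evidence in themselves. TMPRSS4 had 21.7 and 23.2 CPM with EPZ-6438, 2.64 and 2.17 CPM in the labelled knockout with DMSO, and 15.1 and 14.1 CPM in Cal27 with DMSO. It fell by 2.61 ± 0.16 with the knockout label and rose by 3.23 ± 0.15 with EPZ-6438 (log2, SE; edgeR, adjusted p = 9.3e-10 and 1.1e-11), which left it above Cal27 with DMSO by 0.62 ± 0.11. TMPRSS11D, the airway trypsin-like protease HAT, fell by 2.78 ± 0.38 and rose by 1.55 ± 0.43 (log2, SE). The second of these calls was lost without the second EPZ-6438 library (1.16, adjusted p = 0.11 in edgeR). TMPRSS13, named after its values were seen, fell by 3.32 ± 0.50 and rose by 3.20 ± 0.51, and with EPZ-6438 it differed from Cal27 with DMSO by -0.12 ± 0.33 (log2, SE). In the untreated pair TMPRSS13 had 182 counts in the labelled knockout against 167 in Cal27, and with that pair added its change with the label was -1.31 and not called (edgeR, adjusted p = 0.19). The matriptase gene ST14 rose by 0.29 ± 0.04 with the label and by 0.51 ± 0.04 with EPZ-6438, and the prostasin gene PRSS8 by 0.69 ± 0.05 and 0.20 ± 0.04 (log2, SE).

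Among 12 listed receptors and substrates 6 were tested, of which 5 rose and 1 was not called with the knockout label, with a median of 0.22, and 3 rose and 3 fell with EPZ-6438, with a median of 0.07 (log2). Over all tested genes 16.4% rose with the label, and 25.6% rose and 23.9% fell with EPZ-6438. F2RL1, the receptor PAR2, averaged 150 ± 0.37 CPM in the labelled knockout with DMSO and 125 ± 2.6 CPM in Cal27 with DMSO (SD, n = 2 each), rose by 0.26 ± 0.04 with the label and fell by 0.18 ± 0.04 with EPZ-6438 (log2, SE). F2R, the thrombin receptor PAR1, rose by 0.64 ± 0.10 and 0.80 ± 0.09, but had 389 counts in the untreated labelled knockout against 1039 in untreated Cal27. IL1B, whose precursor KLK7 can cut, rose by 0.56 ± 0.03 and 0.22 ± 0.02, and PLAU, the urokinase gene, by 0.09 ± 0.03 and 0.41 ± 0.03. The first PLAU call was lost without the second Cal27 library with DMSO or either knockout library with DMSO (edgeR, adjusted p = 0.12, 0.068 and 0.11), and with the untreated pair added (0.14). CDH1, E-cadherin, differed by 0.01 ± 0.03 with the label (adjusted p = 0.78 in edgeR) and fell by 0.50 ± 0.03 with EPZ-6438. The substrates of skin shedding were barely expressed: CDSN, corneodesmosin, had 1 to 4 counts in each of the DMSO and EPZ-6438 libraries, and DSG1, desmoglein 1, had 0. In untreated cells DSG1 had 161 counts in SKN3, 694 in BICR78 and 0 in the labelled knockout, against 11 in Cal27.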

How the data were processed

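Total RNA was depleted of ribosomal RNA before library preparation, per the labels' protocols. The values analysed are read counts per gene as the authors deposited them, whole numbers without scaling. Tools in the submitters' processing notes are featureCounts 1.6.1, HISAT2 2.1.0, Picard 2.23.1 and CASAVA 1.7, with build hg38. Neither the annotation nor the strand setting is named in these sources. The 7 CUT&Tag samples were not analysed here.

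Samples were grouped by title. One model in edgeR 4.0.16, under R 4.3.3, covered the 6 EPZ-6438 and DMSO libraries, with group as the only term, the default low-count filter (13241 genes left), TMM scaling, the quasi-likelihood F test and Benjamini-Hochberg adjustment over all tested genes. On simulated data the test gave unchanged genes a larger share of its calls than the nominal rate, so small changes near the threshold are less secure. Levels are CPM with TMM over 10 libraries, compared only within a gene or within the same sum of genes because they are not divided by length. Intervals are exact and cover counting error only. Untreated libraries were compared by log2 CPM (prior count 2) without a test, and the test of their difference from the DMSO set was chosen after the values were seen. Alternatives were other scalings, filters and spread estimates, DESeq2 1.42.0, a replicate block, a minimum change and leaving out each library.

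The members, lists and tests were chosen with earlier results of these data known. All members are named. Each list adds the up to 4 genes of lowest adjusted p called in either of the first 2 comparisons, plus SPINK5, ST14, F2RL1, CDSN and DSG1. Sequences are from RefSeq, GRCh38.p14.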

Additional observations from a re-analysis of the deposited data

Results flagged for a closer look

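The change in the labelled knockout relative to Cal27 passed a test of its difference between the untreated and the DMSO libraries for 4 of the 8 members in the fit (edgeR interaction, chosen after the values were seen). The test takes its spread from the DMSO and EPZ-6438 replicates, because spread among untreated cells was not measured. The difference, untreated minus DMSO, was 2.90 for KLK5, 1.89 for KLK6, 1.68 for KLK8 and -5.24 for KLK11 (log2). Across all genes 14.6% had a positive and 15.3% a negative called difference. KLK5, KLK8 and KLK11 kept their calls under other scalings and without each of the DMSO and EPZ-6438 libraries. KLK6 lost its call without the first Cal27 library with DMSO (1.7, adjusted p = 0.11) and without either library of the labelled knockout with DMSO (1.94 and 1.84, adjusted p = 0.11 and 0.13). Set and treatment cannot be told apart.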

How the results depend on the processing

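Under every alternative run, DESeq2 included, the number of members called lower was 6 in the knockout comparison and 6 in EPZ-6438 against Cal27. When the untreated pair was added, KLK11 took the place of KLK6, and the KLK11 call rests largely on that pair. The number called higher with EPZ-6438 was 3, except 1 against a minimum change of 0.5 (log2), where KLK8 and KLK10 had adjusted p = 0.27 and 0.22, and 2 to 3 without single libraries. Against that minimum, genes called over the whole table came to 248 higher and 618 lower with the knockout label, 1272 and 204 with EPZ-6438, and 1053 and 424 for EPZ-6438 against Cal27. With the untreated pair added, the knockout comparison gave 1318 higher and 1595 lower. Leaving out single libraries gave 1571 to 2262 higher and 1892 to 2571 lower with the label, 2803 to 3362 and 2535 to 3163 with EPZ-6438, and 2909 to 3420 and 2920 to 3390 for EPZ-6438 against Cal27. With library size alone 58.8% of calls were higher with the label, and 58.8% for EPZ-6438 against Cal27, against 45.7% and 50.2% with TMM, and the median of all genes moved to 0.04 and 0.06.

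A library left alone in its group was assumed to vary like the others. Signs turned for low or uncalled values when single libraries were left out (log2). With the label, KLK14 ranged from -0.61 (without the first knockout library with DMSO; -0.28 without the second Cal27 library) to 1.19, KLK4 from -0.08 (-0.03 without the first Cal27 library) to 0.21, and CDH1 reached -0.01. With EPZ-6438, KLK6 ranged from -0.93 to 1.42, KLK7 from -0.39 to 1.32, KLK9 from -1.62 to 4.08 and KLK14 from -1.43 to 0.01. For EPZ-6438 against Cal27, KLK14 ranged from -1.15 to 0.33, and TMPRSS13 came to 0.04 and 0.22 without the first Cal27 or the second EPZ-6438 library. With the untreated pair added KLK14 came to -0.33, KLK4 to -0.48, SERPINA3 to 0.05 and F2R to -0.11, and SERPINA3 and F2R had been called. SPINK5, TMPRSS13 and PLAU lost their calls there (adjusted p = 0.052, 0.19 and 0.14). The cause of these turns was not tested.

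The labels do not say whether replicate numbers pair the samples. Deviations between replicates were hardly correlated over the groups (0.013, -0.047 and 0.0017), which cannot show that the samples were unpaired. With a replicate block the members' counts were again 6, 3 and 6, and all genes gave 2054 higher and 2458 lower, 3299 and 3071, and 3373 and 3345 in the 3 comparisons. KLK4 with EPZ-6438 lost its call (adjusted p = 0.052). Depth limits KLK11 to KLK13, and counts under about 10 in KLK6, KLK7 and KLK9.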
